A study of Homo sapiens with 6 samples.

Results

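The 57 genes described here encode ribosome biogenesis factors, the nucleolar and ribosome assembly proteins that build ribosomes but are not part of the finished particle. They were listed by name for that function, with earlier results of these data known, and were matched to the gene symbols of the count tables, where all 57 were found among 24462 symbols. By step, 6 members act in transcription of ribosomal RNA (rRNA), 8 in small nucleolar ribonucleoproteins (snoRNPs), 19 in assembly of the small subunit, 20 in assembly of the large subunit and 4 at several steps. All 57 passed the filter on low counts and were among the 12650 genes tested.

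The study asked how miR-200a and the ETS transcription factor ELK3 act together in MDA-MB 231, a human triple-negative breast cancer cell line with mesenchymal features. RNA was collected 48 h after transfection with Lipofectamine 3000 and sequenced from its 3′ ends (QuantSeq), in 3 groups of 2 libraries. The NC mimic group received a control mimic, for which the labels give no dose. The miR-200a group received 100 nM of a miR-200a mimic. The third group received 100 nM miR-200a together with 30 ng of an ELK3 plasmid, which the sample labels name pcDNA3.1 Hygro(+)-ELK3 and the treatment protocol names pcDNA3.1-Flag-ELK3. No empty plasmid is named for the other groups, so addition of a plasmid and addition of ELK3 cannot be told apart. All 6 libraries come from 1 cell line, and nothing states that the replicates were separate cultures, so the p-values measure only the spread between these libraries.

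A ribosome begins in the nucleolus, where RNA polymerase I copies the ribosomal DNA into a long precursor. Small nucleolar RNAs, held in proteins of the box C/D and box H/ACA families, then guide methylation and pseudouridylation of that precursor. Assembly factors fold, cut and trim it with the ribosomal proteins along separate small-subunit and large-subunit paths, and many of their genes are known to move together when growth of a cell changes.

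The mimic is shown first because its seed defines the sites searched for in the members. In the RefSeq table (GRCh38.p14) the mature miR-200a lies at chr1:1167916-1167937 on the plus strand, and its seed (bases 2 to 8) is in capitals.
hsa-miR-200a-3p: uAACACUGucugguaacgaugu
The complementary site, CAGTGTT, was searched for on the sense strand in the 3′ untranslated region (3′UTR) of 1 coding transcript per gene (GENCODE 29). It was held by 6 of the 57 members (10.5%), against 2193 of the 11261 tested genes with a 3′UTR (19.5%). The members also had shorter 3′UTRs, with a median of 504 bases against 1101 bases over those tested genes. The matches stand in WDR43, POLR1B, POLR1A, UTP15, NOC2L and WDR3, of which WDR3 holds 2 and WDR43 has an A after its site. They are printed below with 10 bases on each side and the seed match in capitals.
WDR43: ctactcttggCAGTGTTagggtatctg
POLR1B: caaacaggtaCAGTGTTttttaccagc
POLR1A: ctgcccgctgCAGTGTTttcacgggag
UTP15: aaggaaccagCAGTGTTtttccctgag
NOC2L: ggctggtggcCAGTGTTtccacctccc
WDR3: tccaaggagtCAGTGTTgtttaggcag

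The promoters are shown because the members moved together, and because ELK3 belongs to a family that binds a GGAA core. RefSeq promoter windows, from 250 bases before to 50 bases after the start of the gene (GRCh38.p14), matched 49 of the 57 members; BOP1, DDX18, NOLC1, NOP58, RRP12, RRP1B, RRS1 and TCOF1 had none. The palindromic E-box CACGTG was held by 18 of the 49 windows (36.7%), against 10.3% of 9373 windows of tested genes and 7.43% of all 27305 windows. By step, it was held by 9 of 18 small-subunit windows, 7 of 16 large-subunit windows and 2 of 6 snoRNP windows, and by 0 of 5 transcription windows and 0 of 4 windows of members acting at several steps. An ETS-type motif, CCGGAAG on either strand, was held by 19 of the 49 windows (38.8%), against 19.6% of windows of tested genes and 10.7% of all windows. An E-box match and an ETS-type match cannot overlap, whereas ETS-type matches on opposite strands can share bases, so windows with at least 1 match were counted. A match is a description of the sequence, not a bound site.

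The E-boxes of 8 members described below are printed 5′ to 3′ along the gene, with 10 bases on each side and the motif in capitals. In 7 of them the motif begins within 28 bases after the annotated start, and in EBNA1BP2 it lies 237 bases before it.
MRTO4 (chr1:19251809-19251834, plus strand): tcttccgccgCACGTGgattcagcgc
PNO1 (chr2:68157887-68157912, plus strand): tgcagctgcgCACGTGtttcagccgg
WDR43 (chr2:28894660-28894685, plus strand): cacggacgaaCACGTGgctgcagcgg
BYSL (chr6:41921517-41921542, plus strand): cttcagtcccCACGTGcgatccttcc
FBL (chr19:39846358-39846383, minus strand): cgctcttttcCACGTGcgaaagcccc
NOP14 (chr4:2963376-2963401, minus strand): cgcggcccggCACGTGtcttagggta
PES1 (chr22:30591882-30591907, minus strand): cttggcagggCACGTGcgggaggaag
EBNA1BP2 (chr1:43172792-43172817, minus strand): tattgttggcCACGTGggatcgaaga
A small-subunit promoter is given whole for the ETS-type motif, which it holds on the gene's own strand at 28 and 8 bases before the start (capitals).
TSR1 (chr17:2336408-2336707, minus strand): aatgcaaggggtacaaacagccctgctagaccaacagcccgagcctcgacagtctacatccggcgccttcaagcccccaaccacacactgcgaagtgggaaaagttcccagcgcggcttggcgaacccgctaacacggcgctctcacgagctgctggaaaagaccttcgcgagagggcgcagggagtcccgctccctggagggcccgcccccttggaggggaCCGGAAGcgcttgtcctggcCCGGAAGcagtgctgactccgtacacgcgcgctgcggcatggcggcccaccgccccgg

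The libraries held 3055915 to 4868004 counts, so 3 counts correspond to 0.611 to 0.979 CPM (the count relative to the library size, scaled by the trimmed mean of M values, TMM), the level below which a gene was not detectable. The lowest count of any member in any library was 16. Of 5 genes typical of this mesenchymal line, VIM was at 956 to 2463 CPM, CAV1 at 432 to 661 CPM, MSN at 538 to 684 CPM, CD44 at 195 to 337 CPM and AXL at 756 to 1036 CPM. In miR-200a plus ELK3 replicate 2 the first 4 were at their lowest and AXL at its highest, and CD44 was also lower in replicate 1 of that group (218 CPM) than in the other groups. ESR1 was at 0 counts in all 6 libraries, PGR at 0 to 1 counts and ERBB2 at 23.3 to 47.3 CPM. Of other genes typical of luminal breast cells, KRT19 was at 46.7 to 79.9 CPM. GATA3 was at 3.29 to 8.72 CPM, GREB1 at 2.12 to 10.4 CPM, and FOXA1 and TFF1 at 0 to 3 counts. ELK3 was at 138 and 166 CPM in the NC mimic libraries, 102 and 103 CPM with miR-200a, and 96.2 and 79.2 CPM in the libraries labelled plus ELK3, so it was not higher where the plasmid was added. The plasmid carries the coding region and the reads come from 3′ ends, so these counts do not check its expression. The replicates labelled plus ELK3 lay farther apart than the others: the root mean square of their log2 CPM difference was 0.56 over all tested genes, against 0.40 between the NC mimic libraries and 0.34 between the miR-200a libraries. Over the members the distances were 0.40, 0.24 and 0.24 in that order.

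The ribosome biogenesis factors stood at similar levels in the NC mimic and miR-200a libraries and at higher levels in the libraries labelled plus ELK3. Their CPM summed to 7612 and 7220 in the NC mimic libraries (mean 7416 ± 277, SD, n = 2), 7035 and 6965 with miR-200a (7000 ± 49.5, SD, n = 2) and 10586 and 11621 in the libraries labelled plus ELK3 (11104 ± 732, SD, n = 2). As a share of all counts, the members took 0.702% to 0.753% in the 4 libraries of the NC mimic and miR-200a groups and 1.06% and 1.14% in the other 2. In each of the 5 steps, both libraries labelled plus ELK3 had a higher summed CPM than all 4 others. In such bulk RNA, fewer cells of a type and less RNA per cell cannot be told apart.

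Gene by gene, the group labelled plus ELK3 had the highest mean CPM for 52 of the 57 members (91.2%), against 41.4% of all genes tested. For 39 members the order from high to low was miR-200a plus ELK3, NC mimic, miR-200a, and for 13 it was miR-200a plus ELK3, miR-200a, NC mimic. The 5 others, RRN3, NOP10, NOB1, HEATR1 and WDR75, were highest in the NC mimic group. Relative to the NC mimic mean, the median member stood at -0.11 and -0.13 on the log2 scale in the miR-200a libraries and at 0.53 and 0.65 in the libraries labelled plus ELK3.

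**Figure D1:**
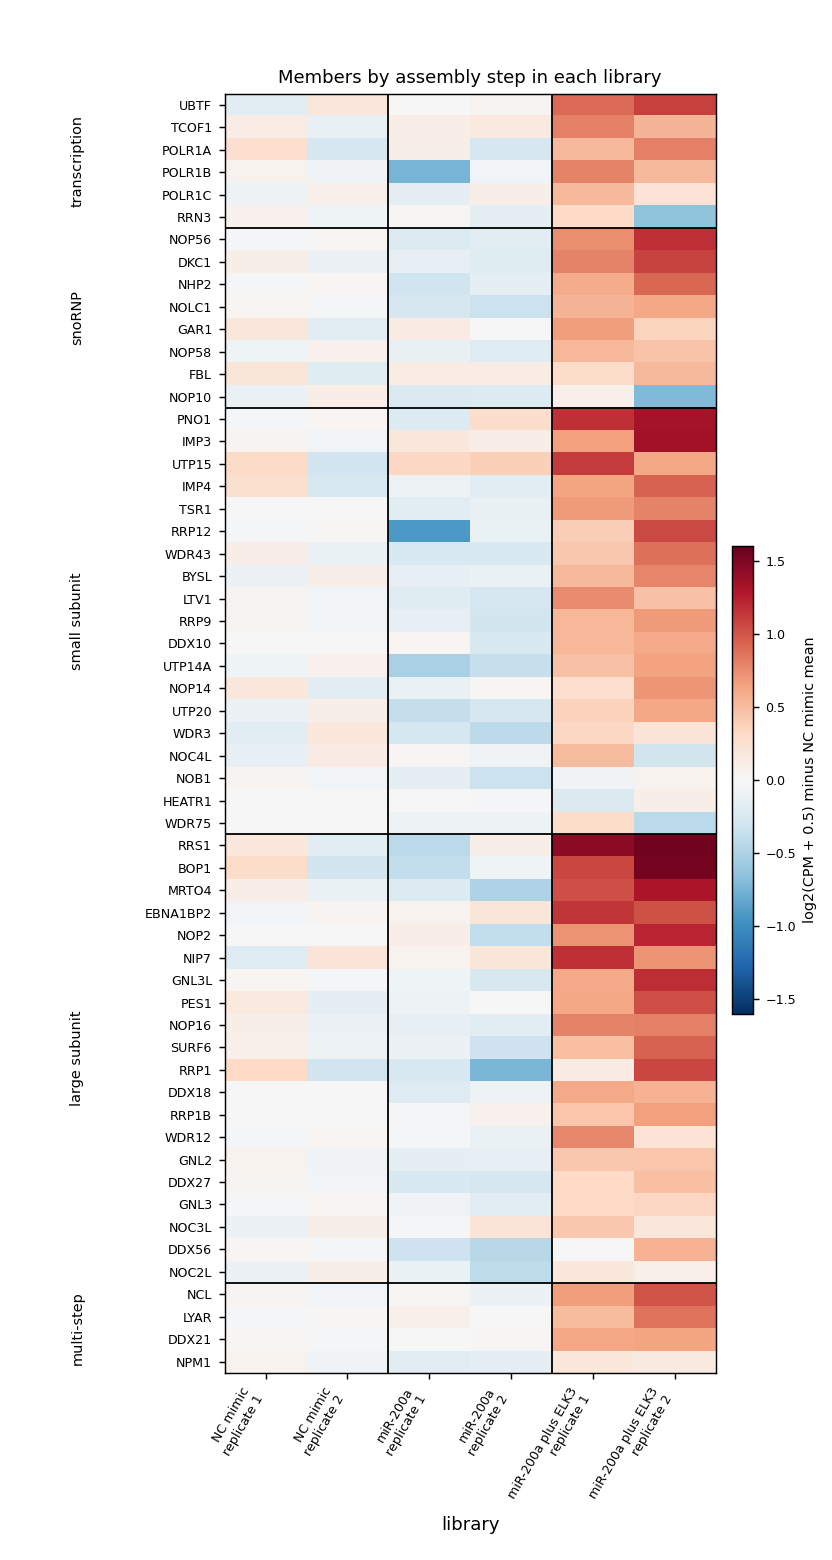
Rows are the 57 members, grouped by step and ordered by their level in the libraries labelled plus ELK3, and columns are the 6 libraries; colour gives log2(CPM + 0.5) minus the mean of the NC mimic libraries. The 2 right-hand columns are red for most rows of every step, while RRN3, NOP10, NOC4L and WDR75 are blue in replicate 2.

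Adding the ELK3 plasmid to the mimic asks whether ELK3 turns back what miR-200a changes. Against miR-200a alone, 40 members rose and 0 fell (edgeR quasi-likelihood test with Benjamini-Hochberg adjustment over 12650 genes, adjusted p under 0.05). Over all genes tested, 7.03% rose and 5.91% fell in this comparison. The median log2 fold change of the members was 0.79, a fold of 1.73, and that of all genes tested was 0.02, with 54 members positive and 3 negative. At an unadjusted p under 0.05, 46 members were higher and 0 lower, against 16.5% and 14.1% of all genes. In 51 members both libraries labelled plus ELK3 lay above both miR-200a libraries and in 0 members both lay below. Of all genes tested, 30.2% had the former pattern and 27.95% the latter.

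Against the NC mimic, 31 members rose and 0 fell, with a median log2 fold change of 0.63 (fold 1.55), against 0.01 for all genes tested. The shares over all genes were 6.92% higher and 5.95% lower. At an unadjusted p under 0.05, 44 members were higher and 0 lower, against 16.2% and 14.5% of all genes. In 48 members the libraries lay entirely above those of the NC mimic and in 0 entirely below, against 29.0% and 27.6% of all genes. The libraries labelled plus ELK3 enter both comparisons, so these are not separate evidence.

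How many members passed the threshold depended on the model and on the libraries in it. The test shares 1 estimate of the spread over the 3 groups. Fitted on only the 4 libraries compared, 25 members rose against miR-200a (2.31% of all genes) and 14 against the NC mimic (2.35% of all genes). DESeq2 called 35 and 27 members higher (5.98% and 5.87% of the genes it gave an adjusted p), and limma on quantile-normalized values 1 and 4 (0.198% and 1.30% of all genes). Leaving out miR-200a replicate 1 or replicate 2 took the count against miR-200a to 1 and 0, with 0.0158% and 0.0395% of all genes higher. Leaving out NC mimic replicate 1 or replicate 2 took the count against the NC mimic to 0 and 1, with 0.190% and 0.166% of all genes higher. Without an NC mimic library, 24 members rose against miR-200a (2.21% and 2.24% of all genes), and without a miR-200a library 14 rose against the NC mimic (2.30% of all genes).

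The fits without a library of the plus ELK3 group called more genes in all. Without miR-200a plus ELK3 replicate 1, 45 members rose and 2, RRN3 and NOP10, fell against miR-200a, where 19.2% of all genes rose and 18.2% fell. Without replicate 2, 43 members rose, where 11.1% of all genes did. Against the NC mimic, 43 members rose and RRN3 and NOP10 fell without replicate 1 (19.9% and 17.4% of all genes), and 34 rose without replicate 2 (11.6% of all genes). The log2 fold change of all 40 and all 31 called members was above 0 under every setting tried.

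Against the NC mimic, miR-200a alone changed 0 members by edgeR, DESeq2 or limma, and 1 member, NOLC1, was lower at an unadjusted p under 0.05 by edgeR (4.11% of all genes). Over all genes, 0.213% rose and 0.0553% fell. The member median was -0.15, against -0.02 for all genes, with 44 members negative and 13 positive. The libraries did not overlap in 28 members that were lower and 3 that were higher, against 26.1% and 22.9% of all genes. In the model of these 4 libraries only, NOLC1, a chaperone of snoRNPs also known as Nopp140, fell by 0.29 on the log2 scale (edgeR adjusted p = 0.020), a direction in which 3.12% of all genes were called.

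**Figure D2:**
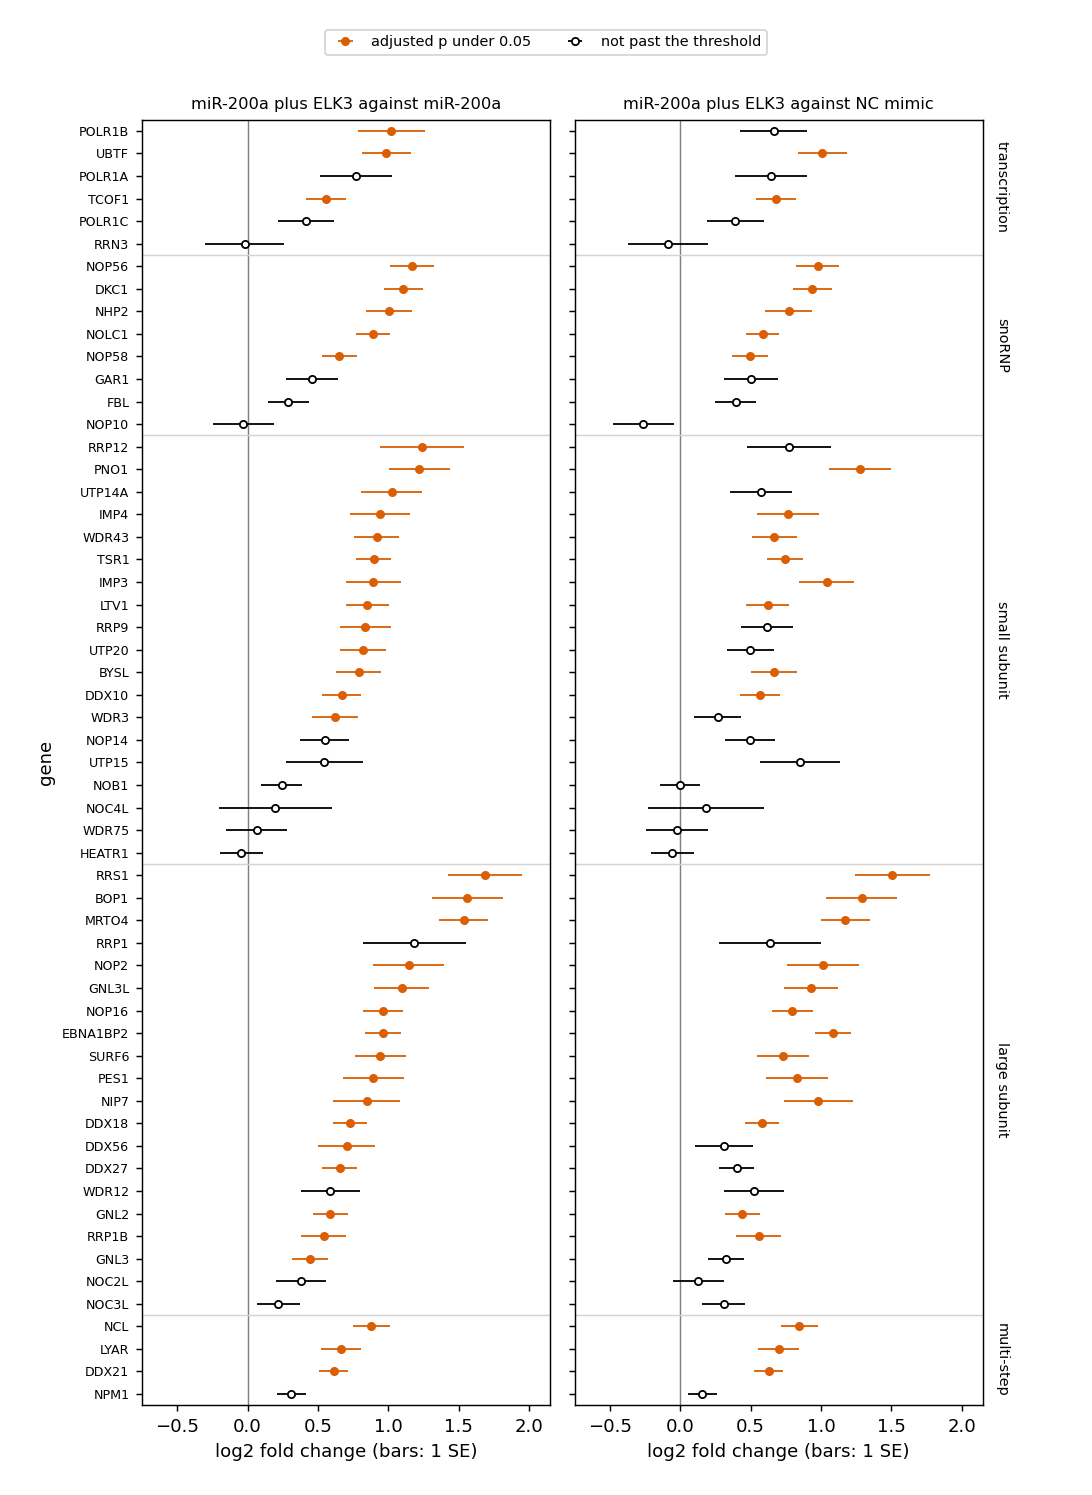
Points are log2 fold changes of each member with bars of 1 SE, by step, for the libraries labelled plus ELK3 against miR-200a (left) and against the NC mimic (right); filled points have an adjusted p under 0.05. The filled points all lie to the right of 0, 40 on the left and 31 on the right, and RRS1 is the highest in both.

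In transcription of rRNA, 3 of 6 members rose against miR-200a (UBTF, POLR1B and TCOF1) and 2 against the NC mimic (UBTF and TCOF1), with step medians of 0.66 and 0.65. Fitted on only the 4 libraries compared, UBTF alone passed in each comparison (edgeR adjusted p = 0.029 and 0.031). In those fits POLR1B had an edgeR adjusted p of 0.064 against miR-200a, and TCOF1 had 0.070 and 0.055. UBTF, which binds the ribosomal DNA and keeps it open for RNA polymerase I, was at 34.1 and 43.7 CPM in the NC mimic libraries, 38.8 and 39.7 CPM with miR-200a and 72.5 and 83.2 CPM in the libraries labelled plus ELK3. The last 2 lay above all others, with log2 fold changes of 0.99 ± 0.17 (SE) against miR-200a and 1.01 ± 0.18 against the NC mimic (edgeR adjusted p = 0.0080 and 0.0073). TCOF1 encodes treacle, which couples this transcription to rRNA processing. It was at 171 and 146 CPM, then 170 and 176 CPM, then 278 and 231 CPM in the same order of groups, again highest in the last pair, and rose by 0.56 ± 0.14 against miR-200a (edgeR adjusted p = 0.031).

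The subunits of RNA polymerase I itself were less uniform. POLR1B, a core subunit, was at 30.1 and 27.7 CPM in the NC mimic libraries, 17.0 and 28.1 CPM with miR-200a and 50.2 and 41.6 CPM in the libraries labelled plus ELK3. Its rise of 1.02 ± 0.24 against miR-200a passed the threshold (edgeR adjusted p = 0.023), and its value of 0.66 ± 0.24 against the NC mimic did not (adjusted p = 0.094). POLR1A, the catalytic subunit, stood at 20.9 and 14.4 CPM, 18.5 and 14.3 CPM, and 25.1 and 30.8 CPM. The last pair lay above the other 4 libraries, but log2 fold changes of 0.77 ± 0.25 and 0.64 ± 0.26 did not pass (edgeR adjusted p = 0.071 and 0.12). RRN3, which brings the polymerase to its promoter, was at 31.8 and 29.0 CPM, 30.9 and 27.3 CPM, and 38.1 and 19.3 CPM, so that the replicates labelled plus ELK3 lay on either side of all other libraries. POLR1C, a subunit shared with RNA polymerase III, had 0.41 and 0.39, neither past the threshold.

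Among the snoRNP proteins, 5 of 8 rose in both comparisons: NOP56, NOP58, DKC1, NHP2 and NOLC1, with step medians of 0.77 against miR-200a and 0.54 against the NC mimic. The models of only the libraries compared called 5 and 2 of the 8 higher (2.31% and 2.35% of all genes). In the box C/D particle, which guides methylation of rRNA, NOP56 and NOP58 passed and FBL did not. Whether their changes differed was not tested. NOP56, a core protein of this particle, was at 144 and 148 CPM in the NC mimic libraries, 125 and 130 CPM with miR-200a, and 244 and 329 CPM in the libraries labelled plus ELK3. Its rise was 1.17 ± 0.15 against miR-200a (fold 2.25, edgeR adjusted p = 0.0029) and 0.98 ± 0.15 against the NC mimic (adjusted p = 0.0048). NOP58, its partner, was at 146 and 160 CPM, 141 and 133 CPM, and 220 and 210 CPM, rising by 0.65 ± 0.13 against miR-200a. FBL is fibrillarin, the methyltransferase of the same particle. With 526 and 401 CPM, 498 and 499 CPM, and 561 and 658 CPM, it was higher in both libraries labelled plus ELK3, but 0.29 ± 0.15 and 0.39 ± 0.15 did not pass (edgeR adjusted p = 0.21 and 0.10).

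In the box H/ACA particle, which guides pseudouridylation, DKC1 and NHP2 passed and GAR1 and NOP10 did not, again without a test of the difference. DKC1, the pseudouridine synthase, was at 200 and 177 CPM in the NC mimic libraries, 172 and 164 CPM with miR-200a and 326 and 397 CPM in the libraries labelled plus ELK3, without overlap between the last group and the others. It rose by 1.11 ± 0.14 against miR-200a (edgeR adjusted p = 0.0024) and 0.94 ± 0.14 against the NC mimic (adjusted p = 0.0035). NHP2, of the same core, rose by 1.00 ± 0.16 and 0.77 ± 0.16. GAR1 had 0.46 and 0.50, and NOP10 -0.03 and -0.26, none past the threshold, and NOP10 was at 204 and 117 CPM in the libraries labelled plus ELK3, on either side of the 163 and 164 CPM with miR-200a. NOLC1 was at 200 and 191 CPM, 162 and 153 CPM, and 285 and 301 CPM, so all 3 groups were separate, and it rose by 0.89 ± 0.12 against miR-200a and by 0.58 ± 0.12 against the NC mimic (edgeR adjusted p = 0.0029 and 0.014).

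In small-subunit assembly, 13 of 19 members rose against miR-200a and 8 against the NC mimic, with step medians of 0.82 and 0.61. The models of only the libraries compared called 8 and 3 of the 19 higher (2.31% and 2.35% of all genes). TSR1, PNO1, BYSL and LTV1, which act on late precursors of the subunit, passed in both comparisons, and NOB1, which also acts on them, passed in neither. TSR1, a GTPase-like factor, was at 120 and 121 CPM in the NC mimic libraries, 106 and 111 CPM with miR-200a and 194 and 210 CPM in the libraries labelled plus ELK3. With replicates this close, it rose by 0.90 ± 0.13 and 0.75 ± 0.13 (edgeR adjusted p = 0.0035 and 0.0066). PNO1, an RNA-binding partner of the endonuclease NOB1, went from 17.8 and 18.6 CPM and 15.6 and 22.2 CPM to 41.7 and 46.5 CPM, a fold of 2.33 against miR-200a and 2.42 against the NC mimic (edgeR adjusted p = 0.0084 and 0.0073). BYSL encodes bystin. It was at 46.1 and 52.9 CPM, 44.8 and 45.6 CPM, and 71.0 and 85.3 CPM, with rises of 0.79 ± 0.16 and 0.66 ± 0.16.

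NOB1, which makes the last cut in the small-subunit rRNA, did not pass in either comparison. Its level was 95.8 and 89.7 CPM in the NC mimic libraries, 83.7 and 73.2 CPM with miR-200a, and 89.3 and 96.1 CPM in the libraries labelled plus ELK3. The difference from miR-200a was 0.24 ± 0.14 (edgeR adjusted p = 0.29), and the libraries overlapped with those of the NC mimic.

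The small-subunit processome, the early particle built around the U3 snoRNA, was uneven. IMP3, a U3-associated protein, was at 167 and 156 CPM in the NC mimic libraries, 183 and 174 CPM with miR-200a, and 255 and 409 CPM in the libraries labelled plus ELK3, whose replicates differed while both lay above the rest. It rose by 0.89 ± 0.19 and 1.04 ± 0.19 (edgeR adjusted p = 0.017 and 0.0097). WDR43, an early subunit of it, was at 202 and 174 CPM, 159 and 159 CPM, and 253 and 346 CPM, rising by 0.92 ± 0.16 and 0.67 ± 0.16. IMP4 and DDX10, an RNA helicase, also rose in both comparisons. RRP9, RRP12, UTP14A, UTP20 and WDR3 passed the threshold against miR-200a and not against the NC mimic, and whether these changes differed was not tested.

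HEATR1, a large scaffold of the same particle, was at 86.6 and 87.1 CPM in the NC mimic libraries, 86.8 and 85.4 CPM with miR-200a and 74.1 and 92.8 CPM in the libraries labelled plus ELK3. Its log2 fold changes were -0.04 ± 0.15 and -0.06 ± 0.15, and the last pair of libraries lay on either side of the others. NOP14 was at 141 and 111 CPM, 117 and 128 CPM, and 152 and 205 CPM, with 0.55 ± 0.18 and 0.49 ± 0.18, close to the threshold but not past it (edgeR adjusted p = 0.066 and 0.090). UTP15, WDR75 and NOC4L did not pass either, and NOC4L was at 3.76 to 6.87 CPM in all libraries.

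In large-subunit assembly, 16 of 20 members rose against miR-200a and 13 against the NC mimic, with step medians of 0.87 and 0.68 and all 20 log2 fold changes above 0 in both. The models of only the libraries compared called 9 and 6 of the 20 higher (2.31% and 2.35% of all genes). MRTO4, which holds the place of a ribosomal stalk protein on the precursor, was at 53.4 and 46.3 CPM in the NC mimic libraries, 42.6 and 35.3 CPM with miR-200a and 102 and 124 CPM in the libraries labelled plus ELK3. All 3 groups were separate, and the gene rose by 1.54 ± 0.17 against miR-200a (fold 2.90, edgeR adjusted p = 0.0015) and by 1.17 ± 0.17 against the NC mimic (fold 2.26, adjusted p = 0.0035). RRS1, which brings in the particle that contains the smallest large-subunit rRNA, went from 11.6 and 9.14 CPM and 7.47 and 11.0 CPM to 28.7 and 31.0 CPM. At a fold of 3.22 against miR-200a and 2.84 against the NC mimic (edgeR adjusted p = 0.0050 and 0.0074), it had the largest fold changes of the 57 members.

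EBNA1BP2 is a nucleolar assembly factor. It was at 127 and 135 CPM in the NC mimic libraries, 136 and 150 CPM with miR-200a, and 290 and 265 CPM in the libraries labelled plus ELK3, rising by 0.96 ± 0.13 and 1.09 ± 0.13 (edgeR adjusted p = 0.0029 and 0.0012). NOP16 was at 68.4 and 59.7 CPM, 58.3 and 56.2 CPM, and 112 and 112 CPM. Both genes had replicates close together and no overlap between the last group and the others, and NOP16 rose by 0.96 ± 0.14 and 0.80 ± 0.14.

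The PeBoW complex of PES1, BOP1 and WDR12 is needed to process the large-subunit rRNA. BOP1 was at 26.5 and 17.6 CPM in the NC mimic libraries, 16.4 and 20.6 CPM with miR-200a, and 45.7 and 63.7 CPM in the libraries labelled plus ELK3, and rose by 1.56 ± 0.25 and 1.29 ± 0.25 (edgeR adjusted p = 0.0059 and 0.011). PES1 was at 24.3 and 19.6 CPM, 20.6 and 21.8 CPM, and 33.6 and 45.1 CPM, and rose by 0.89 ± 0.22 and 0.83 ± 0.22. The third subunit, WDR12, was higher without overlap in the same libraries, at 52.1 and 35.5 CPM against 28.3 to 31.0 CPM in the 4 others, but 0.59 ± 0.21 and 0.53 ± 0.21 did not pass (edgeR adjusted p = 0.089 and 0.12).

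GNL3 is nucleostemin, a nucleolar GTPase. It was at 123 and 128 CPM in the NC mimic libraries, 121 and 111 CPM with miR-200a, and 157 and 158 CPM in the libraries labelled plus ELK3, and rose by 0.44 ± 0.13 against miR-200a (edgeR adjusted p = 0.047). Against the NC mimic its 0.33 ± 0.13 did not pass (edgeR adjusted p = 0.11), although the libraries did not overlap. Its relatives GNL2 and GNL3L rose in both comparisons, as did the rRNA methyltransferase NOP2, the helicase DDX18, and NIP7, SURF6 and RRP1B. The helicases DDX27 and DDX56 rose against miR-200a. With a term for replicate number in the model, RRP1B passed in neither comparison (edgeR adjusted p = 0.074 and 0.072). In that model GNL3, NIP7 and DDX56 did not pass against miR-200a (edgeR adjusted p = 0.083, 0.067 and 0.072). GNL2 and SURF6 did not pass there against the NC mimic (edgeR adjusted p = 0.082 and 0.0504). RRP1, NOC2L and NOC3L did not pass, with log2 fold changes of 1.18 ± 0.36, 0.38 ± 0.18 and 0.22 ± 0.15 against miR-200a.

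Of the 4 proteins that act at several steps, NCL, DDX21 and LYAR rose in both comparisons. The models of only the libraries compared called 2 of the 4 higher in each (2.31% and 2.35% of all genes). NCL encodes nucleolin, an RNA-binding protein of the nucleolus, and was at 897 and 839 CPM in the NC mimic libraries, 882 and 815 CPM with miR-200a and 1382 and 1740 CPM in the libraries labelled plus ELK3. It rose by 0.88 ± 0.13 and 0.85 ± 0.13 (edgeR adjusted p = 0.0043 and 0.0044). DDX21, a helicase that binds rRNA and snoRNAs, was at 921 and 897 CPM, 915 and 924 CPM, and 1400 and 1410 CPM, rising by 0.61 ± 0.10 and 0.63 ± 0.10. LYAR, a nucleolar zinc finger protein, was at 179 and 185 CPM, 193 and 181 CPM, and 258 and 333 CPM, and rose by 0.66 ± 0.14 and 0.70 ± 0.14.

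NPM1 is nucleophosmin, a chaperone of the nucleolus that shuttles ribosomal particles. At 1043 and 966 CPM in the NC mimic libraries, 897 and 910 CPM with miR-200a, and 1127 and 1114 CPM in the libraries labelled plus ELK3, its groups were separate but close. The log2 fold changes of 0.31 ± 0.10 and 0.16 ± 0.10 did not pass (edgeR adjusted p = 0.078 and 0.34). GENCODE names 45 processed copies of NPM1, none of them listed in the count tables, and how reads shared with copies were counted is not given in the sources used here.

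**Figure D3:**
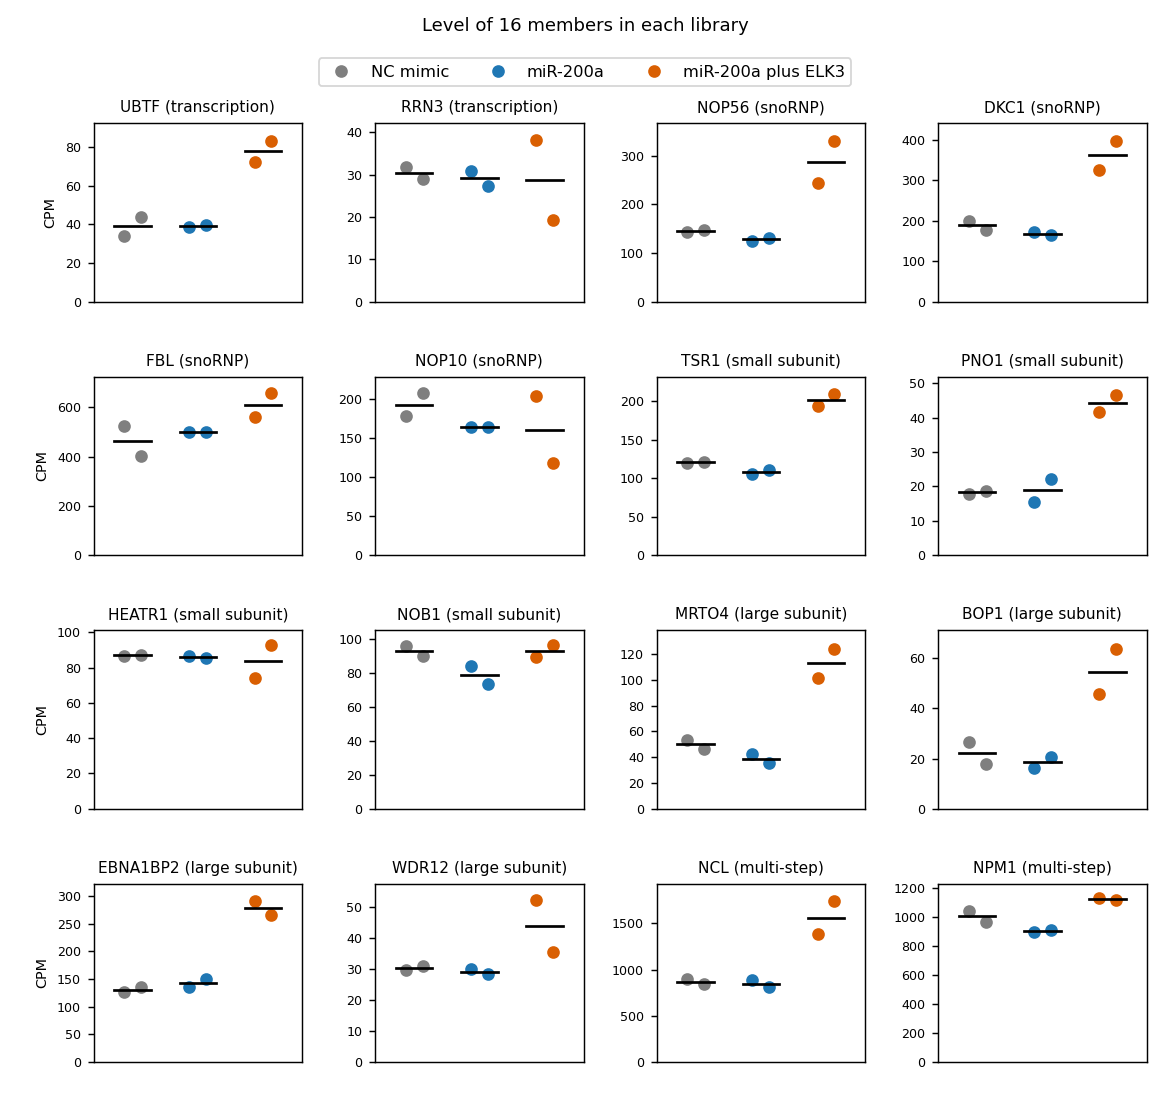
Each panel shows 1 of 16 members, with CPM on an axis from 0, a point for each of the 6 libraries and a line at the mean of each group. UBTF, NOP56, DKC1, TSR1, PNO1, MRTO4, BOP1, EBNA1BP2 and NCL have both orange points above all others. So do FBL, WDR12 and NPM1, which did not pass the threshold. RRN3 and HEATR1 have 1 on each side of the other libraries.

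A further 123 genes of ribosome biogenesis that are not among the members were listed by the same steps, with the addition of rRNA trimming, and 121 were tested. Against miR-200a, 46 rose and 0 fell (38.0% higher, against 7.03% of all genes), with a median log2 fold change of 0.50. Against the NC mimic 31 rose and 0 fell (25.6% higher, against 6.92% of all genes), with a median of 0.40. At an unadjusted p under 0.05, 77 were higher and 1 lower, against 16.5% and 14.1% of all genes. Against the NC mimic these were 58 and 3, against 16.2% and 14.5%. DESeq2 called 36 and 22 of them higher and 0 lower (5.98% and 5.87% of the genes it gave an adjusted p were higher). Without either miR-200a library the former count was 0 and 1, and without either NC mimic library the latter was 1 and 0. Without miR-200a plus ELK3 replicate 1, the median of the list was 0.56 against miR-200a and 0.47 against the NC mimic. Without replicate 2, it was 0.39 and 0.30. Those fits called more of the list higher than the model of 3 groups did. Some were also called lower, except without replicate 2 against miR-200a. In the models of the compared groups 20 and 11 rose (2.31% and 2.35% of all genes). By limma 1 and 2 rose (0.198% and 1.30% of all genes). CD3EAP, a subunit of RNA polymerase I, was at 70.2 and 64.3 CPM in the NC mimic libraries, 54.4 and 67.2 CPM with miR-200a and 138 and 190 CPM in the libraries labelled plus ELK3. It rose by 1.43 ± 0.18 and 1.28 ± 0.19 (edgeR adjusted p = 0.0026 and 0.0031). PAK1IP1, a large-subunit factor, rose by 1.27 ± 0.16 and 0.95 ± 0.16, and FTSJ3, an rRNA processing methyltransferase, by 1.21 ± 0.20 and 1.32 ± 0.20. HEATR3, chosen after its values were seen, had few counts: 9 and 7, then 6 and 1, then 27 and 18.

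By step, the genes of this second list that rose against miR-200a were 21 of 42 in the large subunit, 17 of 43 in the small subunit, 5 of 17 in rRNA trimming, 2 of 10 in transcription and 1 of 9 in snoRNPs. In the miR-200a group against the NC mimic, edgeR called 0 of them, with a median of -0.10. At an unadjusted p under 0.05, 1 was higher and 8 were lower, where 4.11% of all genes were lower. In the model of those 4 libraries only, 1 was higher and 5 were lower, against 4.77% and 3.12% of all genes.

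The 79 cytosolic ribosomal protein genes, whose products are built into the particle by these factors, moved less. Against miR-200a, 4 rose and 0 fell (5.06% higher, against 7.03% of all genes), with a median log2 fold change of 0.12. Against the NC mimic edgeR and DESeq2 called 0, where edgeR called 6.92% of all genes higher, and the median was 0.00. At an unadjusted p under 0.05, 4 were higher and 1 lower in that comparison, against 16.2% and 14.5% of all genes. RPL6, at 1050 and 1052 CPM in the NC mimic libraries, 926 and 925 CPM with miR-200a and 1214 and 1567 CPM in the libraries labelled plus ELK3, rose by 0.59 ± 0.13 against miR-200a (edgeR adjusted p = 0.019). RPL10 rose by 0.43 ± 0.12 (adjusted p = 0.045). These calls changed with the model. DESeq2 called 1 higher (5.98% of the genes it gave an adjusted p) and the model of the 4 libraries 0 (2.31% of all genes). Without the filter on low counts 11 were higher and 1 lower, where 1229 of the 2490 genes called were higher. Against the NC mimic 4 were higher without the filter, where 1311 of the 2525 genes called were higher. Those totals are splits of the genes called, not shares of the genes tested. Without miR-200a plus ELK3 replicate 1, the median was 0.17 against miR-200a and 0.076 against the NC mimic. Without replicate 2, it was 0.013 and -0.089. Those fits called more of these genes than the model of 3 groups did, and in both directions. For miR-200a against the NC mimic, edgeR, DESeq2 and limma called 0 of the 79. By edgeR 4 were lower at an unadjusted p under 0.05, where 4.11% of all genes were. The model of those 4 libraries called 16 lower (20.3%, against 3.12% of all genes).

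**Figure D4:**
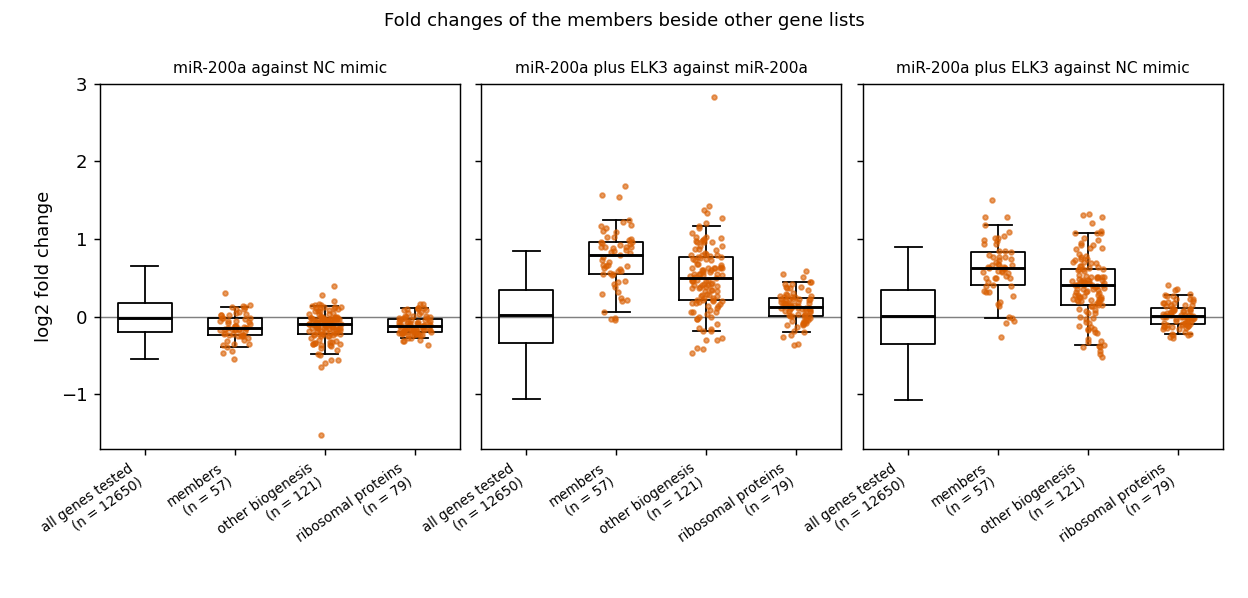
Boxes show the log2 fold changes of all 12650 genes tested, the 57 members, the 121 other biogenesis genes and the 79 ribosomal protein genes in each comparison, with the median as a line, whiskers at the 5 and 95 percentiles and each listed gene as a point. In the comparison with miR-200a the medians are 0.02, 0.79, 0.50 and 0.12, and in that of miR-200a with the NC mimic they are -0.02, -0.15, -0.10 and -0.12.

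Of the 6 members with a match to the mimic's seed, 5 had negative and 1 had positive log2 fold changes with miR-200a. In the miR-200a libraries against the NC mimic, the median log2 fold change was -0.25 for the 6 members with a site and -0.15 for the 51 without, and none of the 57 passed the threshold. WDR43, with a site followed by an A, had -0.25 ± 0.16, with both miR-200a libraries below both NC mimic libraries. WDR3 had -0.36 ± 0.17 and NOC2L -0.25 ± 0.18, also lower without overlap. The libraries overlapped for POLR1B at -0.36 ± 0.25 and POLR1A at -0.13 ± 0.26. UTP15 had 0.30 ± 0.29 and was higher without overlap. The 51 members without a site ran from -0.55 for RRP1 to 0.14 for IMP3. Over all tested genes with a 3′UTR, the medians were -0.05 with a site and -0.01 without.

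Set beside the promoter motifs, 14 of the 18 members with the E-box CACGTG rose against miR-200a, with a median log2 fold change of 0.87, and 18 of the 31 without it, with a median of 0.66. The E-box holders included EBNA1BP2, MRTO4, PNO1, WDR43, BYSL and PES1, which rose, and FBL, NOP14, NOP10 and NOC3L, which did not pass. Over all tested genes, 114 of 961 with the E-box in the window rose (11.9%), with a median of 0.05, and 568 of 8412 without it (6.75%), with a median of 0.02. For the ETS-type motif, 12 of 19 members with it rose, with a median of 0.66, and 20 of 30 without it, with a median of 0.85. Over all tested genes the order was the other way, with 183 of 1840 holders rising (9.95%, median 0.13) and 499 of 7533 others (6.62%, median -0.01). TSR1, whose promoter is printed above, was among those with it, and so was DDX21. These are descriptions of sequence and carry no test.

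Several members share their place in the genome with other transcripts. In GENCODE 29, 21 of the 57 are overlapped by a listed gene on the opposite strand and 0 on the same strand, among them MRTO4 by EMC1, TSR1 by SGSM2 and SRR, BOP1 by SCX, and NOP16 by ARL10 and HIGD2A. Whether the counting used the strand is not given in the sources used here, so for these members reads of the overlapping gene cannot be told apart. In 8 members, NOP56, NOP58, DKC1, WDR43, TSR1, GNL3, NCL and POLR1C, the gene also hosts snoRNAs in its body, 25 in all. Named pseudogene copies exist for 16 members, and the 3 copies of RRN3 are listed in the count tables under their own names. The members' genes lie on 20 chromosomes.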

How the data were processed

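Gene counts of 6 QuantSeq 3′ mRNA libraries of MDA-MB 231 cells (3 groups, 2 libraries each) were analysed. The deposited counts are raw whole numbers of reads per gene symbol, which the authors made before deposit; the submitters' processing notes name Bowtie2, edgeR and hg19, and the study's methods name ExDEGA. Program versions, the annotation and the counting program are not given in the sources used here. The 25737 lines of each file hold 24462 symbols, 286 of them on several lines, which were summed (no member among them).

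Members and lists were chosen with earlier results of these data known. Genes were kept by filterByExpr (minimum count 10), library sizes were scaled by TMM, and group differences were tested with edgeR 4.0.16 (quasi-likelihood F-test, 3 groups in 1 model, 3 residual degrees of freedom) in R 4.3.3, with Benjamini-Hochberg adjustment over 12650 genes and a threshold of 0.05. Fold changes carry a standard error (SE), the absolute log2 fold change divided by the square root of its F statistic. CPM values are per library. The libraries held 3055915 to 4868004 counts, and the detection limits cover counting error only. Tests were checked on simulated data. Alternatives were DESeq2 1.42.0, limma 3.58.1, other normalizations and filters, models of the 2 compared groups, a replicate block and leaving out each library. Values in every library are given for key members of each step. They are given for up to 3 called members of each step with the smallest p in each comparison with the libraries labelled plus ELK3. Apart from HEATR3, up to 2 genes are named for each other list and comparison, not all with values in every library. Promoters and miR-200a came from RefSeq (GRCh38.p14), and 3′UTRs and overlaps from GENCODE 29 (GRCh38), which is not the build of the files. Sites printed were chosen after the results were seen.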

Additional observations from a re-analysis of the deposited data

How the results depend on the processing

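The direction of the member medians held in all alternatives, and the number of members past the threshold did not. In the model of only the compared groups the members called were 1, 25 and 14 (miR-200a against NC mimic, then miR-200a plus ELK3 against miR-200a and against NC mimic), where the model of 3 groups called 0, 40 and 31. Over all genes the calls in that order were 999, 579 and 598, then 34, 1637 and 1629. By limma on quantile-normalized log2(count + 1) the members called were 0, 1 and 4, with 107 and 391 genes called in all in the latter comparisons. DESeq2 gave 0, 35 and 27 (1182 and 1213 genes in all). With no filter on low counts the members called were 0, 41 and 37 (2490 and 2525 in all). A minimum of 10 counts in each library gave 0, 38 and 31 (1537 and 1533 in all). Upper-quartile scaling gave 0, 35 and 28 (1504 and 1579 in all), and DESeq2 size factors in edgeR 0, 37 and 30 (1587 and 1603 in all). Upper-quartile scaling also changed the split over all genes against miR-200a from 889 of 1637 higher to 622 of 1504, while 0 members were lower in either.

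Leaving out each library in turn gave 0 to 1, 0 to 47 and 0 to 45 members called, and member medians from -0.16 to -0.11, 0.64 to 0.88 and 0.51 to 0.68 on the log2 scale. A group with 1 library left is assumed to vary like the others. Against miR-200a the counts of 1 and 0 came without a miR-200a library (49 and 39 genes in all) and those of 47 and 43 without miR-200a plus ELK3 replicate 1 or 2 (4730 and 2852 in all). Against the NC mimic, 0 and 1 came without an NC mimic library (90 and 91 in all) and 45 and 34 without a plus ELK3 library (4721 and 2871 in all). The cause was not tested. With a replicate block the members called were 0, 35 and 25 (1157 and 1170 genes in all in the latter comparisons). Against miR-200a, WDR3, GNL3, RRP1B, DDX56 and NIP7 no longer passed. Against the NC mimic, NOP58, IMP4, PES1, GNL2, RRP1B and SURF6 no longer passed. The labels share replicate numbers only, and deviations of same-numbered libraries correlated at -0.003, -0.036 and -0.11 over 12650 genes. The block changed no direction of a called member. With the numbers of the plus ELK3 libraries crossed, chosen after seeing the data, the counts were 0, 40 and 29 (1644 and 1661 genes in all).

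Some values that were not called changed sign, and the cause was not tested. For HEATR1, miR-200a against NC mimic was 0.0099 without the filter, 0.0059 in the model of the compared groups and 0.0085 by limma, and for NOB1, miR-200a plus ELK3 against NC mimic was 0.0071 without the filter and 0.00071 with the replicate block. When each library was left out, the values for miR-200a against NC mimic ran from -0.35 to 0.19 for POLR1A, -0.16 to 0.020 for RRN3, -0.15 to 0.21 for UBTF, -0.077 to 0.31 for FBL, -0.21 to 0.13 for NOP14, -0.025 to 0.0059 for HEATR1, -0.22 to 0.29 for PNO1, -0.52 to 0.070 for BOP1, -0.20 to 0.11 for PES1, -0.48 to 0.073 for RRS1, -0.091 to 0.023 for NCL, -0.0021 to 0.036 for DDX21 and -0.010 to 0.082 for LYAR. Against miR-200a they ran from -0.59 to 0.35 for RRN3 and -0.26 to 0.11 for HEATR1, as well as -0.48 to 0.27 for NOP10, -0.34 to 0.34 for WDR75 and -0.30 to 0.52 for NOC4L, and against the NC mimic from -0.64 to 0.29 for RRN3, -0.26 to 0.12 for HEATR1, -0.086 to 0.068 for NOB1, -0.69 to 0.061 for NOP10, -0.41 to 0.27 for WDR75, -0.29 to 0.53 for NOC4L and -0.024 to 0.58 for DDX56. POLR1C, GAR1, DDX10, IMP4, NOC4L, NOP2, RRP1B, NIP7 and NOC3L also changed sign for miR-200a against NC mimic. Of the other values of the members given by library, 88 and 80 lost the threshold in these comparisons and 10 and 11 gained it, over all alternatives, without a change of sign. Depth limits mainly NOC4L, whose lowest count was 16.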
